A study of Drosophila melanogaster with 16 samples.

Results

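Motor neurons (MNs) of old flies were compared across the last interval of the age series, from 35 to 45 days after eclosion. All pools whose labels give 1 of these ages were taken, which are 11 of the 16 pools of the series. The 35-day group holds 5 pools and the 45-day group 6 pools, and the 5 pools of 7-day-old flies are used here to give levels and, in 1 alternative, in a model of all 3 ages. Every pool came from 5 female Drosophila melanogaster in a w1118 background in which the D42 driver expressed GFP, so both ages carry the same driver and reporter and no other allele or agent. The flies were kept at 25 °C with 12 h of light and 12 h of dark. GFP-positive cells were sorted from dissociated thoracic ganglia, and their RNA was amplified in 2 rounds and hybridized with Cy3 to 1 custom Agilent array per pool. The label "motor neuron" therefore means a cell in which D42 was active, and the pool of 5 flies is the unit of replication.

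Insect MNs carry commands from the ventral nerve cord to muscle and use glutamate as transmitter. Their firing is set by voltage-gated sodium, calcium and potassium channels, and calcium that enters the terminal is read by EF-hand proteins such as calmodulin, frequenin and neurocalcin. Motor performance of flies declines over the weeks compared here, and the study asked which transcripts of the sorted neurons move with age. Its array was enriched for membrane channels and calcium-binding proteins, so that some genes are read by 1 feature (a printed sequence) and others by more than 100.

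Levels are given as log2 of the background-adjusted signal minus the 75th percentile of the array, so that 0 is the 75th percentile and 1 unit is a doubling. A gene is the mean of its features. Differences are 45 minus 35 days from limma, a linear model with moderated variances, with the slide as a block, since each of the 2 slides held both ages. The threshold was a Benjamini-Hochberg adjusted p under 0.05 over all rows and a change of more than 2-fold. Between 56.7% and 64.6% of spots were well above background on the 11 arrays and 0 were saturated. The lowest share was that of 45-day pool 4, whose median signal was 112 against 314 to 800 on the others. The median SD between spots of a feature on 1 array was 0.048, against 0.44 between 35-day pools and 0.51 between 45-day pools over 4638 features. All 35-day arrays lay in row 1 of their slide, and the 45-day arrays lay in row 1 (pools 1, 4 and 5) or row 2 (pools 2, 3 and 6). Over all 12973 genes the median difference was 0.14, over the 6522 genes with at least 50% of their features well above background on all 11 arrays (called bright below) it was -0.06, and with only arrays of row 1 it was -0.03. Differences of single genes are given as measured and stand beside these shifts. In pools of sorted cells, fewer cells of a type and less RNA per cell cannot be told apart.

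A single gene rose past the threshold and none fell, which is 0.00771% of genes. In the feature fit 9 of 45366 features rose past it (0.0198%), and all 9 belong to Cpr66D, Nca, CG7646 or dysc. At an unadjusted p under 0.05 stood 914 genes, of which 622 (4.79%) were higher at 45 days and 292 (2.25%) were lower. The pools of the 2 ages did not overlap in 36 genes that were higher at 45 days (0.278%) and in 41 that were lower (0.317%). Leaving out any one of the 11 arrays left 1 to 3 features past the threshold in place of 9, with Cpr66D among them each time. With the slide row as a second term or with arrays scaled by their median, 1 feature was called, that of Cpr66D, and with the arrays of row 1 alone 0 features were called, so the calls of the Nca, CG7646 and dysc features were lost under these settings. Across all 12973 genes, the difference measured on slide 1 and that measured on slide 2, which share no array, correlated at 0.01. This value describes genes, which are not independent replicates.

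Cpr66D, a gene of the cuticular protein family with a chitin-binding domain, was the gene past the threshold. Its single feature read -10.55, -10.89, -10.51, -9.54 and -10.20 in the 35-day pools and was not well above background in any of them. In the 45-day pools it was well above background 6 times out of 6, with a lowest level of -3.34, a median of -3.22 and a highest of -1.75. The ages did not overlap, and the transcript was at least 45.0-fold higher at 45 days (limma, adjusted p = 2.9e-05), the bound being set by the lowest signal that counts as well above background on each 35-day array. No size beyond this bound is given, since the 35-day signal was not above background. At 7 days the pools ranged from -9.76 to -4.30, between the other 2 ages and with a wide spread.

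**Figure D1:**
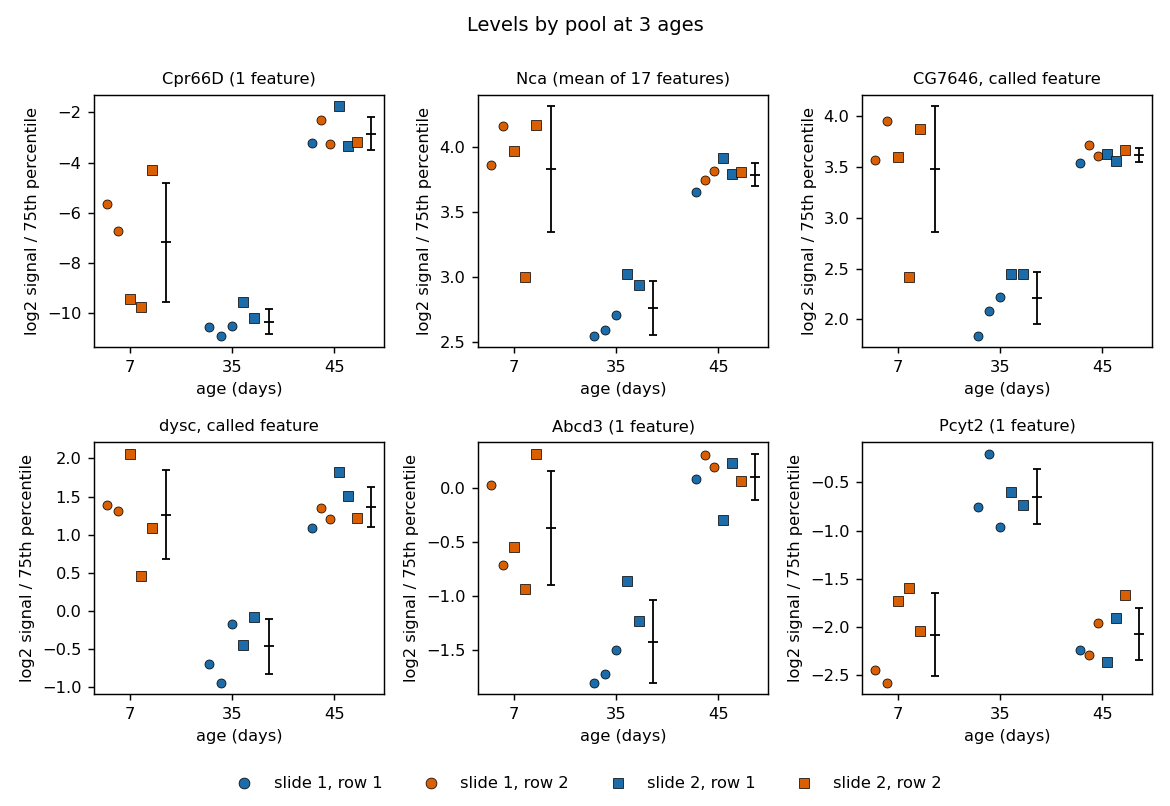
Level of each pool at 3 ages (x axis, days) as log2 signal over the 75th percentile of the array (y axis), for the called gene Cpr66D, for Nca, for the called features of CG7646 and dysc, and for Abcd3 and Pcyt2. Points are pools (shape for slide, color for slide row), bars are mean ± SD, and in every panel the 45-day pools lie outside the range of the 35-day pools.

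Nca encodes neurocalcin, an EF-hand calcium sensor of neurons, and 6 of the 9 called features are its own. The mean of its 17 features read 2.55, 2.59, 2.70, 3.02 and 2.94 in the 35-day pools. At 45 days the lowest pool stood at 3.65, the median at 3.79 and the highest at 3.92, so that every 45-day pool lay above every 35-day pool. The difference was 1.00 ± 0.16 (SE), 1.12 on slide 1 and 0.86 on slide 2. In the fit across all genes its adjusted p was 0.31, and it is therefore not called as a gene. All 17 features were higher at 45 days and 15 did not overlap between the ages. The 6 called features differed by 1.37 to 1.57, which is 2.58-fold to 2.96-fold (limma, adjusted p = 0.045 for each).

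Nca features with a lower 35-day level had larger differences. That level is also subtracted in the difference, so the split and the difference share the same values, which favors this pattern. The 8 Nca features with a 35-day level under 3 differed by 1.37 to 1.57 and the 9 with a level of 3 or more by 0.36 to 0.97. CG7646, another EF-hand gene, overlaps Nca in the annotation, and its 31 features that were well above background on all 11 arrays behaved alike. The 7 below a 35-day level of 3 differed by 0.60 to 1.52, and the 24 above it by -0.33 to 0.54. Its called feature read 1.84, 2.09, 2.23, 2.45 and 2.44 in the 35-day pools and 3.54 to 3.71 in the 45-day pools, a difference of 1.39 without overlap (limma, adjusted p = 0.047). As a gene, CG7646 differed by 0.52 ± 0.21 (SE; two-sided exact permutation of ages within slides p = 0.020, limma adjusted p = 0.54), with 35-day pools between 2.06 and 3.17 and 45-day pools between 3.05 and 3.53. Among all features well above background on all 11 arrays the median size of the difference was 0.15 for the 2063 with a 35-day level of 3 or more and 0.23 for the 8926 with a level of 0 to 3. Whether brightness limits the response of these features was not tested, and features that lie in sequence shared by the 2 genes cannot be assigned to 1 of them here.

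**Figure D2:**
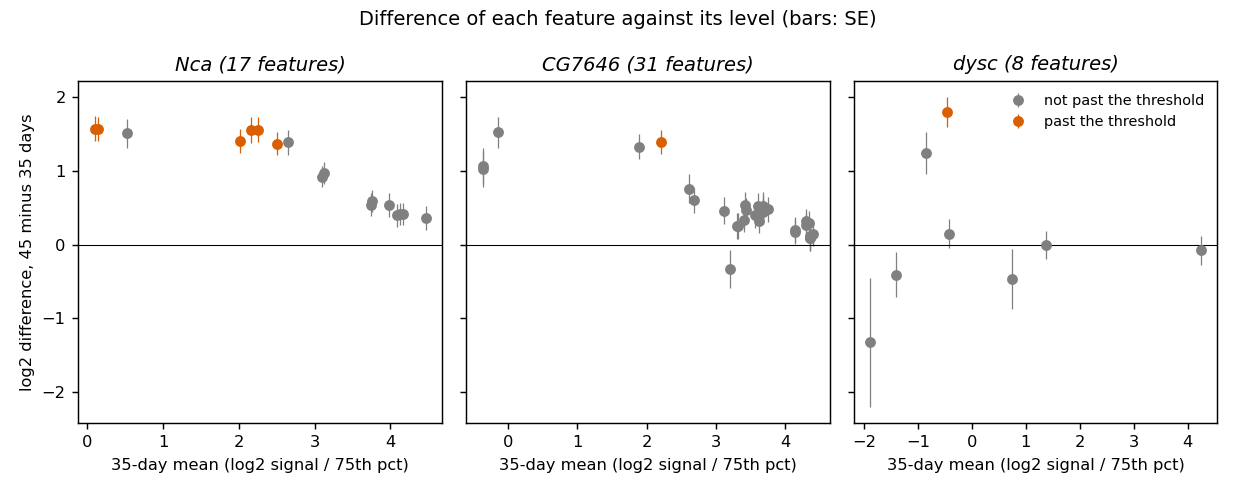
Difference between 45 and 35 days (y axis, log2, bars SE) of each feature of Nca, CG7646 and dysc against its 35-day level (x axis, log2 signal over the 75th percentile), for features well above background on all 11 arrays. The differences of Nca and CG7646 are largest below a level of 3, and those of dysc run from -1.33 to 1.80. The 35-day level enters both axes, which favors larger differences at lower levels.

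Dysc (dyschronic) encodes a PDZ-domain protein known to regulate the Slowpoke potassium channel, and its features did not move together. The called feature read -0.70, -0.95, -0.17, -0.45 and -0.08 in the 35-day pools and 1.08 to 1.82 in the 45-day pools. These ranges are apart, with a difference of 1.80 or 3.48-fold (limma, adjusted p = 0.045) that was 1.82 on slide 1 and 1.78 on slide 2. A second feature differed by 1.24, and the other 6 of the 8 features lay between -1.33 and 0.15. The mean over the gene differed by only 0.11 ± 0.22 (SE; exact permutation p = 0.55). In the annotation dysc overlaps CG13737, and whether any of these features lie in sequence shared with CG13737 was not tested.

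Among bright genes, 25 lay higher at 45 days without overlap and 40 lower. The 12 of lowest p in each direction are described here, and none of them passed the threshold as a gene (limma, adjusted p 0.31 to 0.54). Their differences run from 0.67 to 1.93 upward and from -1.43 to -0.66 downward. Since they were chosen for lack of overlap and low p, their separation, their sign on each slide or in row 1 and their p describe the choice and are no further support.

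Abcd3, an ABC transporter of the peroxisome membrane, had the lowest p of the bright genes that were higher at 45 days, followed by Nca. It read -1.80, -1.72, -1.49, -0.87 and -1.23 in the 35-day pools and between -0.30 and 0.30 in the 45-day pools, a difference of 1.5 ± 0.22 (SE). The difference was 1.86 on slide 1 and 1.05 on slide 2. The transcription factor gene crc (cryptocephal), the fly relative of ATF4 in the integrated stress response, read 2.40 to 3.31 at 35 days and 3.38 to 3.66 at 45 days, with a difference of 0.73 ± 0.19 (SE). For coro, which encodes the actin-binding protein coronin, the difference was 1.61 ± 0.44 (SE), and 35-day pool 1 at -1.05 came close to the lowest 45-day pool at -0.96. Traf6, an adaptor of TNF receptor signaling, differed by 1.08 ± 0.26 (SE), with all 5 35-day pools between -2.42 and -1.68 and the 45-day pools between -1.60 and -0.63. The immunoglobulin-family recognition gene dpr7 differed by 0.95 ± 0.25 (SE), and its ranges nearly touched at 1.83 and 1.85. CG15715, CG14408, CG15760, CG42808, CG41378 and CG5708, named here by annotation number only, differed by 0.67 (CG41378) to 1.93 (CG42808).

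Pcyt2, which makes CDP-ethanolamine for phosphatidylethanolamine synthesis, had the lowest p of the genes that were lower at 45 days. Its levels were -0.75, -0.20, -0.96, -0.60 and -0.73 in the 35-day pools, and its 45-day pools had a lowest level of -2.36, a median of -2.10 and a highest of -1.67. The difference was -1.43 ± 0.22 (SE), -1.52 on slide 1 and -1.31 on slide 2. Ubr1, an N-recognin ubiquitin ligase, had 35-day pools between -0.38 and 0.12, a spread far smaller than that of the 45-day pools between -2.50 and -0.68, and differed by -1.35 ± 0.34 (SE). Ohgt, the fly relative of the ubiquitin ligase receptor cereblon, differed by -0.83 ± 0.21 (SE), and HDAC6, a cytoplasmic deacetylase of tubulin, by -0.96 ± 0.26 (SE). For mRpL43, a protein of the large subunit of the mitochondrial ribosome, the 35-day pools stood within 1.74 and 1.99 and the 45-day pools between 0.79 and 1.61, a difference of -0.77 ± 0.19 (SE). Cyp9f2, a cytochrome P450, and cm (carmine), a subunit of the AP-3 vesicle adaptor, differed by -0.72 and -0.66. CG8314, CG8067, CG31388, CG13151 and CG7737 differed by -1.36 (CG8067) to -1.05 (CG31388).

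**Figure D3:**
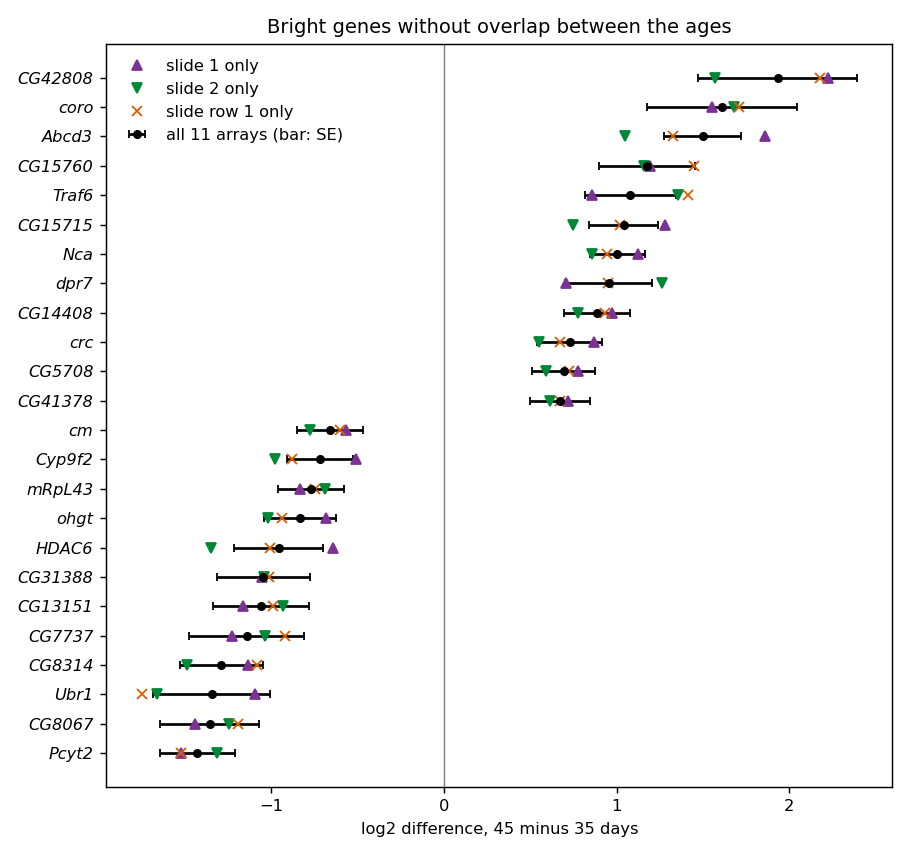
Difference between 45 and 35 days (x axis, log2) of the 24 bright genes of lowest p whose ages do not overlap, 12 in each direction. Black points with SE bars use all 11 arrays, triangles use 1 slide and crosses use slide row 1 (the choice of genes without overlap fixes the side of 0 of every marker). Differences run from -1.43 to 1.93.

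The 7-day pools give the levels of these genes earlier in adult life, as a description without a test. The mean level at 7 days lay between the 35-day and 45-day means in 9 of the 12 genes that were higher at 45 days and in 11 of the 12 that were lower. It lay nearer to the 35-day mean in only 1 of the first 12 and in 5 of the second 12. Since these genes were chosen for the separation of the 2 later ages, the choice itself favors a 7-day mean between them. No such count over other genes stands beside these, and they are no support for a course over age. The mean of Nca over the 5 youngest pools was 3.83 ± 0.48 (SD), over the 5 pools of 35 days 2.76 ± 0.21 (SD) and over the 6 oldest pools 3.79 ± 0.09 (SD). Its 35-day mean was thus the lowest, but 7-day pool 4 lay within the range of the 35-day pools. The mean of Pcyt2 was highest at 35 days, with -2.08 ± 0.43, -0.65 ± 0.28 and -2.07 ± 0.27 (SD) in the same order. CG8620 differed in the same direction over both intervals, with means of -0.04, 2.02 and 2.92 at 7, 35 and 45 days, and its 45-day pools (2.57 to 3.62) lay above its 35-day pools (1.59 to 2.49). All 7-day arrays lay in slide row 2, and row and age cannot be told apart between 7 and 35 days.

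Gene lists were then read by counting members, beside the 4.79% of all genes that were higher and the 2.25% that were lower at an unadjusted p under 0.05. No list member other than Cpr66D passed the threshold as a gene, so none of the list members named in the following is called. They are the members of lowest p, so their permutation p (two-sided exact permutation of ages within slides, smallest possible 0.005 over 200 arrangements) describes genes chosen for it. Medians of lists are given relative to the median of all genes.

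**Figure D4:**
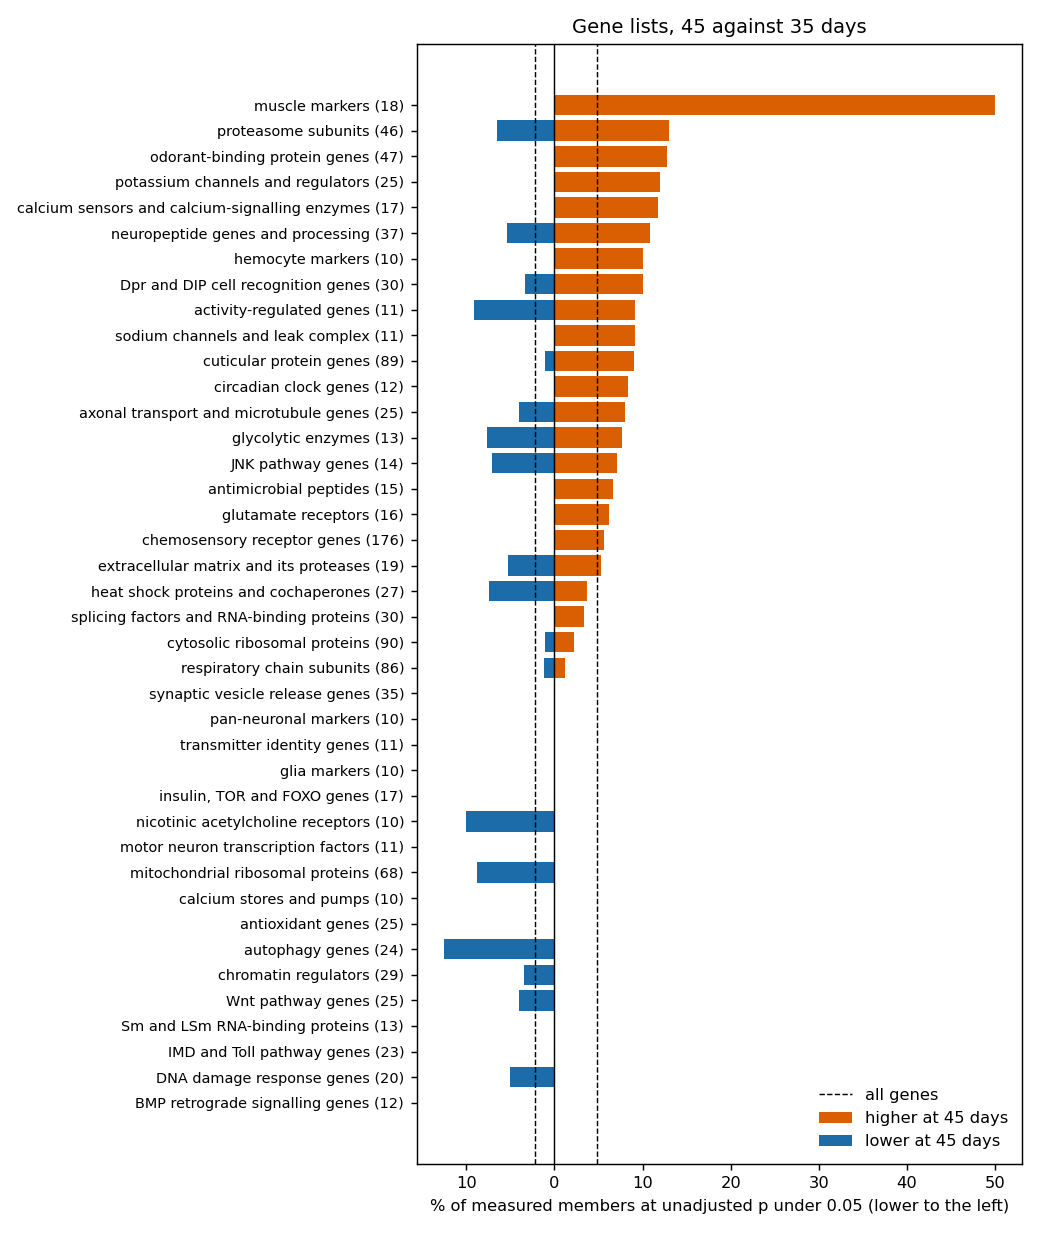
Percentage of measured members at an unadjusted p under 0.05 that were higher (right) or lower (left) at 45 days, for each list with 10 or more measured members (number in parentheses). Dashed lines mark the percentages over all genes, 4.79% and 2.25%, and muscle markers stand furthest out with 9 of 18 members.

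Of the calcium sensors and calcium-signaling enzymes, 15 of 17 were higher at 45 days by any amount, beside 58.7% of all genes. Of the 17, 12 lay above the median of all genes, and only Nca and CG7646 reached an unadjusted p under 0.05. The relative median of the list was 0.14, and -0.05 on slide 1. Among the ion channels, cac, the presynaptic calcium channel subunit read by 156 features, differed by 0.63 ± 0.24 (SE; exact permutation p = 0.025). Its 35-day pools ran from 0.93 to 1.66 and its 45-day pools from 1.49 to 2.31, so the ranges overlapped. Teh1, an auxiliary subunit of the sodium channel, differed by 0.81 ± 0.24 (SE; exact permutation p = 0.010). The sodium-activated potassium channel gene SLO2 differed by 0.61 ± 0.20 (SE; exact permutation p = 0.005), with 35-day pools from -0.64 to 0.15 and 45-day pools from -0.00 to 0.61. For cac and SLO2 the brightest feature gave -0.11 and -0.25 in place of these values. The other measured members of these 3 channel lists include 2 potassium channels at p under 0.05, Irk1 and sand, with 29 of 73 and 0 of 11 features well above background on all 11 arrays, and the brightest feature of Irk1 gave -0.44. Transmitter receptors gave single members as well. The nicotinic receptor subunit nAChRalpha1, with 26 features, read -0.49 to 0.02 at 35 days and -1.64 to -0.59 at 45 days, ranges that are apart, with a difference of -0.70 ± 0.23 (SE; exact permutation p = 0.010), whereas its brightest feature gave 0.19. Of 35 synaptic vesicle release genes, 0 were at an unadjusted p under 0.05 in either direction. The relative median was -0.06, but 0.12 for the 31 bright members against bright genes. The neuropeptide gene Dh31 differed by 0.89 ± 0.33 (SE), with 4 of 37 neuropeptide and processing genes higher and 2 lower at p under 0.05. Inx2, a gap junction protein of the innexin family with 43 features, differed by -0.91 ± 0.32 (SE).

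Of the mitochondrial ribosomal proteins, 6 of 68 (8.82%) were lower at p under 0.05 and 0 higher. All 6 are among the 66 bright members, and of all 6522 bright genes 237 were lower. Of the 68 members 55 had a negative difference, as had 5363 of all 12973 genes, and the relative median was -0.31 over all members and -0.12 among bright genes. The relative median over all members stayed negative on each slide (-0.61 and -0.09), in row 1 (-0.12), and with quantile normalization (-0.15) or normexp background correction (-0.04). These values are against all genes, whose own median was 0.32 on slide 1. Before that subtraction the list median was -0.29 on slide 1 and -0.13 on slide 2. Values against bright genes were not computed for these settings. Beside mRpL43, mRpS7 read 2.94 to 3.35 at 35 days and 2.33 to 2.75 at 45 days, a difference of -0.54 ± 0.17 (SE; exact permutation p = 0.005) without overlap. Bonsai differed by -0.62 ± 0.22 (SE). The 90 cytosolic ribosomal proteins and 86 respiratory chain subunits had 2 and 1 members higher and 1 and 1 lower, below the background shares. In glycolysis, Gapdh1, which oxidizes glyceraldehyde-3-phosphate, read 3.16 to 3.69 at 35 days and 2.72 to 3.35 at 45 days, a difference of -0.48 ± 0.16 (SE; exact permutation p = 0.010). Ldh, lactate dehydrogenase, stood at -4.02, -4.76, -0.76, -5.43 and -0.40 in the 35-day pools and between -1.13 and 0.77 in the 45-day pools. Its 35-day pools fell into low and high levels, with 3 of the 5 below and 2 within the 45-day range (difference 2.82 ± 0.98, SE; exact permutation p = 0.030).

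Autophagy genes had 3 of 24 members (12.5%) lower at p under 0.05 and 0 higher. These were Atg13 (-0.95 ± 0.42, SE), a subunit of the initiation kinase complex, Atg14 (-0.81 ± 0.34, SE), which directs the lipid kinase Vps34, and Atg16 (-1.84 ± 0.57, SE), which acts in Atg8 lipidation. Their exact permutation p were 0.070, 0.045 and 0.025. In row 1 alone Atg13 gave -0.54 and Atg14 -0.50, whereas Atg16 gave -1.71. Of the 3 features of Atg16, 1 was well above background on all 11 arrays. The relative median of the list was -0.33, and -0.04 with normexp background correction. For its 20 bright members against bright genes it was -0.14. Of these 20, 2 were lower at p under 0.05, beside 237 of all 6522 bright genes. Heat shock proteins and cochaperones had 2 lower (Hsp67Ba at -0.72 and Sgt at -1.20) and 1 higher (DnaJ-1, an Hsp40, at 1.19, but -0.44 with its brightest feature), and their relative median moved from -0.47 to 0.01 with the slide row as a term. Proteasome subunits had 6 of 46 higher and 3 lower. The 3 lowest p among the higher ones belong to Rpt6R, Prosbeta2R2 and Prosalpha4T2, of which 0 features were well above background on all 11 arrays, whereas Rpt2, a subunit of the 19S cap, differed by -0.66 ± 0.25 (SE).

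Jra, the fly Jun protein of the AP-1 factor and a target of JNK signaling, read -1.25, -1.83, -1.25, -1.76 and -3.42 in the 35-day pools. At 45 days its lowest level was -4.94, the median -4.00 and the highest -2.28. Only 35-day pool 5 lay within the 45-day range, and the difference was -1.87 ± 0.43 (SE; exact permutation p = 0.005). Arc2, a capsid-forming gene among activity-regulated genes, differed by 0.88 ± 0.39 (SE). Of the remaining signaling lists, 0 of 23 IMD and Toll pathway genes, 0 of 17 insulin, TOR and FOXO genes and 0 of 12 BMP genes were at p under 0.05. The acyltransferase gene por (porcupine), which adds the lipid to Wnt ligands, differed by -1.02 ± 0.31 (SE).

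Antimicrobial peptide genes, the effectors of the humoral immune response, varied widely between pools of 1 age. The summed signal of the 15 genes ran from 0.05 to 4.11 times the 75th percentile at 35 days and from 0.28 to 13.03 times at 45 days. The relative median of their differences was 1.22, but it was 3.26 on slide 1 and -0.57 on slide 2. Def (defensin) was the only member at p under 0.05. It read -9.80 to -7.96 at 35 days and -8.75 to -4.31 at 45 days, with the 3 45-day pools of slide 1 highest, and differed by 3.02 ± 0.61 (SE; exact permutation p = 0.010). Of its 3 features 0 were well above background on all 11 arrays, so background limits the size of this difference.

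Genes of the extracellular matrix include Mmp1, the matrix metalloproteinase that the study followed, which is read by 103 features. Its mean differed by 1.25 ± 0.50 (SE; exact permutation p = 0.060, limma adjusted p = 0.54). The 35-day pools read -4.77, -6.42, -5.75, -4.80 and -2.38 and the 45-day pools -4.31 to -2.71, so that 35-day pool 5 was the highest of all 11. Mmp2 differed by -1.60 ± 1.29 (SE) and dpy, a large apical matrix protein, by 1.28 ± 0.65 (SE), which fell to 0.40 in row 1 alone. Col4a1, a collagen IV chain, differed by -2.10 ± 0.77 (SE). Of 89 cuticular protein genes 8 (8.99%) were higher and 1 was lower at p under 0.05, and their relative median was 0.25, 0.03 with quantile normalization and -0.05 with normexp background correction. Odorant-binding protein genes had 6 of 47 higher and 0 lower, with a relative median of 0.34 that was 0.08 with normexp, and chemosensory receptor genes 10 of 176 higher and 0 lower. Few members of these lists were bright. Among bright members, 2 of 11 cuticular, 0 of 11 odorant-binding and 0 of 3 chemosensory genes were higher at p under 0.05. Of all 6522 bright genes 211 were. Beside Cpr66D, Cpr65Au and Ccp84Ad differed by 1.1 and 1.05. The tubulin gene betaTub60D has 1 feature, which was not well above background on all 11 arrays. It read -10.89 to -5.73 at 35 days and -5.66 to -1.53 at 45 days, a difference of 5.37 ± 1.11 (SE; limma adjusted p = 0.54). The lowest 35-day level lay below any signal that counts as well above background on a 35-day array, so the size of this difference is not read.

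The sorted cells were checked against markers. All 10 pan-neuronal markers were detected, and their summed signal was 36.6 to 47.6 times the 75th percentile at 35 days and 37.96 to 52.1 times at 45 days. The 11 MN transcription factors summed to 9.67 to 13.03 times at 35 days and 9.51 to 13.1 times at 45 days. Among transmitter genes, ChAT, which makes acetylcholine, had means of 2.80 and 2.56 at the 2 ages, with a difference of -0.28 ± 0.20 (SE). Its vesicular transporter VAChT, the dopamine pathway gene Ddc and the dopamine transporter DAT differed by -0.02 ± 0.67, -0.04 ± 0.34 and 1.48 ± 1.27 (SE), and the GABA-synthesizing enzyme Gad1 stood at 4.87 and 4.91. VGlut, the transporter that marks glutamatergic neurons, was not analyzed here.

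Muscle markers were the list that stood furthest from the background, with 9 of 18 (50.0%) higher at p under 0.05, 0 lower and a relative median of 0.94. This median was 0.62 on slide 1, 1.19 on slide 2 and 0.91 in row 1. Mlc2, a myosin light chain, read -0.47, -1.09, -1.61, -1.05 and -2.53 in the 35-day pools and -0.91 to 1.02 in the 45-day pools (difference 1.35 ± 0.47, SE). Mlc1 differed by 0.99 ± 0.33 (SE), TpnC41C, a troponin C, by 1.63 ± 0.41 (SE) and the troponin I gene wupA by 1.15 ± 0.48 (SE), whereas the actin gene Act79B differed by 0.00 ± 0.34 (SE). The age ranges overlapped in all 18. Their summed signal was 3.98 to 11.53 times the 75th percentile at 35 days and 7.30 to 22.7 times at 45 days. The highest 45-day sums were those of pools 6 (22.7) and 3 (18.2), both in slide row 2. Pool 2 of the same row stood at 9.44, and the row 1 pools reached at most 11.7. At 7 days the sums ran from 1.86 to 14.7 times. Each of the 18 was well above background on at least 1 array, but only 9 were bright. Of these 9 bright markers 5 were higher at p under 0.05, beside 211 of all 6522 bright genes. The troponin T gene up, also higher at that p, had 0 of 172 features well above background on all 11 arrays. Glial markers went the other way, with 7 of 10 lower, 0 at p under 0.05 and summed signals of 21.7 to 35.8 times at 35 days and 15.6 to 29.0 times at 45 days. Of the 8 fat body markers 8 were higher (0 at p under 0.05, relative median 0.40) and of the 10 hemocyte markers 9 (1 at p under 0.05, relative median 0.43, 0.06 with normexp), as were 16 of the 18 muscle markers. Of all genes 58.7% were higher, and only 2 of the 10 hemocyte markers were bright. Fat body markers summed to 10.4 to 29.2 and 14.7 to 43.2 times, with Fbp2 not well above background on any of the 11 arrays, and hemocyte markers to 0.25 to 0.90 and 0.30 to 1.63 times, with He likewise not above background. The part of muscle, fat body, glia or hemocyte RNA in the differences reported above was not tested.

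**Figure D5:**
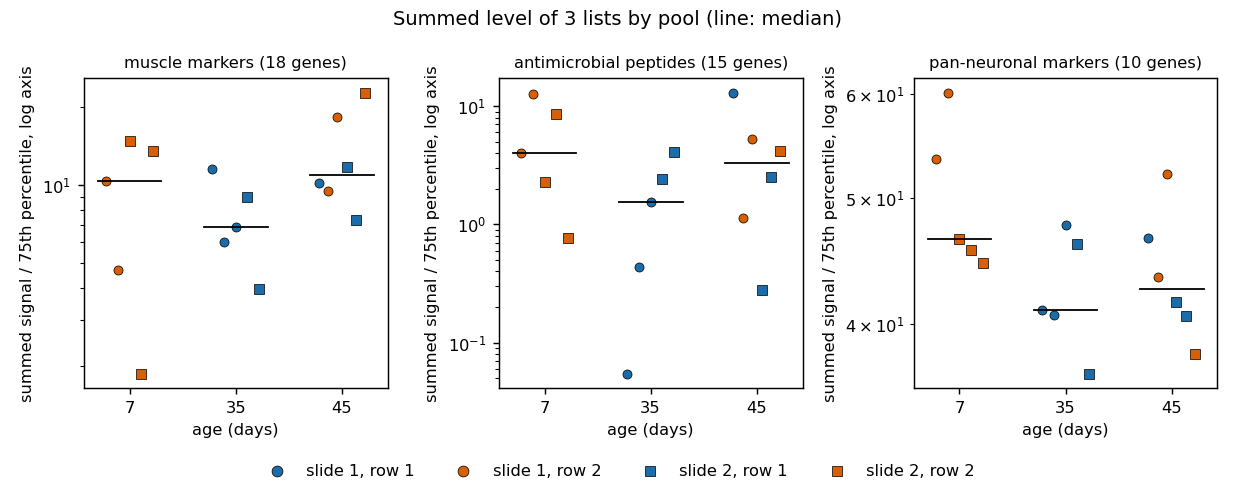
Summed signal over the 75th percentile of the array (y axis, log scale) of 18 muscle markers, 15 antimicrobial peptide genes and 10 pan-neuronal markers in each pool at 3 ages (x axis, days). Lines are medians, point shape is the slide and color the slide row, and the 35-day and 45-day pools overlap in all 3 panels.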

How the data were processed

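The authors sorted GFP-positive cells from the thoracic ganglion, amplified their RNA and hybridized 1 single-color array per pool. The deposited scanner output of Agilent Feature Extraction gives a linear intensity per spot that is already corrected for background. The authors also deposited a table of log2 values, used here as an alternative, which matches the scaled log2 intensities once each feature is centered on its median, with a median absolute difference of up to 0.0025 per array.

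After removal of control and outlier spots, intensities were put on the log2 scale and the 75th percentile over the features of each array was subtracted. Spots of a feature, then features of a gene, were averaged. No filter on dim features was applied, and 557 features and 42 genes lacked a value on at least 1 array. Symbols from RefSeq Release 6 were found for 34984 of 45366 features. No coordinates are given, since the scanner files name build dm3. Pools of 5 flies each are separate samples, and their number sets the precision. Genes and features were fitted with limma 3.58.1 (lmFit, eBayes) with the slide as a block, and single genes by exact two-sided permutation of ages within slides. The fits were also run on simulated data with independent noise and no slide or row effect. Such data cannot show how slide or row bears on the calls.

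The comparison, the 46 lists and the genes named were chosen with earlier results of these data known. Named were genes past the threshold or with a feature past it, the 12 bright genes of lowest p in each direction among those without overlap, up to 4 members per list of lowest p, genes the study names, and markers. CG8620 and Gad1 are members of these lists. Alternatives were other scaling, background correction, filters, slide and row terms, a replicate block, gene summaries, array weights, all 3 ages in 1 model, and each array left out.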

Additional observations from a re-analysis of the deposited data

Results flagged for a closer look

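In 9 of 194 groups of pools (the named genes at each age) the highest or lowest pool stood apart from the others by more than Dixon's 95% limit, and chance gives this in about 1 in 20 groups. At 35 days, pool 3 was the lowest for CG15715 at 1.30 (next pool 1.72) and for CG42808 at -2.71 (next pool -1.28), and the highest for the neuropeptide gene NPF at -5.68 (next pool -9.61). Pool 5 was the lowest at this age for Jra at -3.42. The troponin C gene TpnC41C was highest in pool 4 at -4.06, and the clock gene tim (timeless) was highest in pool 1 at -4.26. At 45 days, pool 4, which had the lowest share of spots above background, was the lowest for the odorant-binding protein gene Obp18a at -3.45 and for nAChRalpha1 at -1.64. Pool 2 was the lowest for CG7737 at -4.15. Levels are log2 signal over the 75th percentile of the array.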

How the results depend on the processing

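Of 3069 recomputed values of 97 named genes, 3029 kept their direction and their side of the threshold. Many of these genes were chosen for low p, lack of overlap or a call in the same data. Only Cpr66D was past the threshold as a gene in the full comparison. The choice thus favors an unchanged direction and side, and this count is no measure of robustness. The count of genes past the threshold was 1 in the full comparison. It was 2 with the slide row as a term, with quantile normalization, with a variance trend and with the methods' t-test, 3 with the mean over features above background on all 11 arrays, 16 on slide 1 alone and 0 on slide 2 alone, and 1 to 2 without single arrays. The count of features was 9. It was 1 with the row term, with median scaling and with all 3 ages in 1 model, 0 in row 1 alone and on slide 2 alone, 43 on slide 1 alone, 20 with quantile normalization and with features above background on all 11 arrays, 23 with those above it at 1 age, 17 with the variance trend and with the t-test, and 1 to 3 without single arrays. Slides alone and row 1 alone hold fewer arrays, and the other causes were not tested. Cpr66D was not called on slide 2 alone, whereas Nca was called as a gene in 4 alternatives (quantile normalization, variance trend, t-test, mean over bright features), and Abcd3 and Pcyt2 in the last of these.

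Signs turned for 33 values. With the brightest feature the differences were -0.44 for DnaJ-1 and Irk1, -0.058 for RpL38, -0.25 for SLO2, -0.11 for cac, -0.076 for dysc, 0.19 for nAChRalpha1 and -0.034 for sun (the latter also with both filters). With normexp they were -0.20 for Ir94e, -0.035 for Obp93a, -0.011 for Prosalpha4T2 and -0.21 for Prosbeta2R2, and the difference of Or24a was -0.00449. With a floor Cpr35B gave 0.50, and on slide 2 dysc gave -0.17 and Ddc 0.020. Ddc gave -0.18 to 0.15 without single arrays, the sign turning without 45-day pool 1 or 4. VAChT gave 1.05 on slide 1, 0.11 with a floor, 0.24 with either filter, 0.22 with array weights, 0.99 with the median of features, and -0.50 to 0.55 without single arrays.

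Pool numbers are shared between the ages, but the deviations of pools of 1 number correlated at -0.02 to 0.18, and 3 of 5 matched their own number best, so they were taken as numbers only. With a replicate block 1 gene and 1 feature were called, both Cpr66D, and VAChT gave 0.056. Signals near background limit the dim genes, whose order is not read here.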
